A study of Mus musculus with 6 samples.

Results

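The Rab genes encode small GTPases that direct membrane traffic between organelles, and their transcripts were followed here in NMuMG cells, an immortalized epithelial line from normal mouse mammary gland. Members were all genes with a symbol made of Rab, a number and at most 1 letter from a to d, taken from probe sets annotated to exactly 1 symbol. Each gene was represented by its probe set with the highest mean over the 6 arrays, a choice of level and not of change. The rule gave 59 Rab genes of 18193 genes measured, and these 59 genes had 132 probe sets in all. Among them 5 were set apart as epithelial secretory Rab genes, namely Rab17, Rab11a, Rab25, Rab27a and Rab27b, and 54 were other Rab genes.

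Affymetrix expression arrays had been hybridized with total RNA from 3 groups of 2 arrays each. Control cells received vehicle, TGF-β cells received 4 ng/ml TGF-β for 11 days, and withdrawal cells received the same 11 days of TGF-β and were then kept without it for 13 days. All groups were the same line in the same serum- and insulin-containing medium, but withdrawal cells were cultured for longer, and that effect and the effect of withdrawal cannot be told apart. The labels leave unsaid whether replicate arrays stand for separate cultures or for the same RNA, so every p-value refers to spread between the deposited arrays, which may be technical.

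A Rab protein acts as a switch. A guanine nucleotide exchange factor (GEF) loads it with GTP on a particular membrane, the loaded form binds effectors such as tethers and motor proteins, and a GTPase-activating protein (GAP) ends the cycle. Polarized epithelial cells use Rab11, Rab17, Rab25 and Rab27 proteins to carry cargo through recycling endosomes and secretory vesicles to the apical surface, and TGF-β drives NMuMG cells out of that polarized state in an epithelial to mesenchymal transition.

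The description labels call the TGF-β arrays "undergone MET" and the withdrawal arrays "undergoing EMT", which is the reverse of what their titles and treatments say, and the groups below follow the titles and treatments. Cdh1, the epithelial cadherin, averaged 11.94 in control cells, 8.31 under TGF-β and 11.80 after withdrawal on the log2 scale, an order that follows the titles. Of 9 epithelial markers 6 fell under TGF-β and none rose, while 4 rose and 2 fell from TGF-β to withdrawal. Krt8 averaged 14.31 in control cells, whereas Epcam was at 7.0 and Cldn7 at 4.99, below the lower quartile of all genes. Leukocyte, endothelial and adipocyte markers lay between 3.68 and 6.85 in every group mean, with Ptprc, which defines leukocytes, at 3.83 to 3.99. Cd68 averaged 5.75, 5.59 and 6.63 in control, TGF-β and withdrawal cells and rose on withdrawal (adjusted p = 0.00167 against TGF-β). Of the other 16 such markers, Cdh5 fell by 0.26 under TGF-β (adjusted p = 0.0495) and Tyrobp was 0.41 lower in withdrawal than in control cells on the log2 scale (adjusted p = 0.0119). The part of these markers in the Rab results was not tested, and in bulk RNA fewer cells of a type and less RNA per cell cannot be told apart.

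Promoter windows are shown for 4 genes that carry the main patterns: Rab17 and Rab11a, which fell under TGF-β and rose after it was withdrawn, Rab25, an epithelial Rab with little difference between groups, and Rab8b, which went the opposite way. RefSeq (GRCm38.p6) gave 60 windows for 48 of the 59 genes, since some genes have several annotated starts. Each sequence is the 250 bases before the annotated gene start, written 5′ to 3′ along the gene. Capitals mark CACCTG or CAGGTG, the E-box read on either strand that Snail and Zeb repressors of epithelial genes bind, and CAGACA or TGTCTG, an extended Smad-binding element on either strand. No match of either motif overlapped another in these 4 windows. The windows are chr1:90967668-90967917 for Rab17, chr9:64737757-64738006 for Rab11a, chr3:88548280-88548529 for Rab25 and chr9:66919706-66919955 for Rab8b, all on the minus strand.
Rab17: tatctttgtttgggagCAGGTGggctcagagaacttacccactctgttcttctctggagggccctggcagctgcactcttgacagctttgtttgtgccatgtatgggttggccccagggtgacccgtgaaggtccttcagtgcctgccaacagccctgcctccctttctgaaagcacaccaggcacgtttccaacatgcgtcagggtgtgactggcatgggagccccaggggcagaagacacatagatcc
Rab11a: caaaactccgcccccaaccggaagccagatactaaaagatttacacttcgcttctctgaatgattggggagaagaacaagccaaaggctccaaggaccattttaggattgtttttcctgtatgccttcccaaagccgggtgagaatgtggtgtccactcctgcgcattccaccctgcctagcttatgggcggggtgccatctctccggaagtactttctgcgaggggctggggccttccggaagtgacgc
Rab25: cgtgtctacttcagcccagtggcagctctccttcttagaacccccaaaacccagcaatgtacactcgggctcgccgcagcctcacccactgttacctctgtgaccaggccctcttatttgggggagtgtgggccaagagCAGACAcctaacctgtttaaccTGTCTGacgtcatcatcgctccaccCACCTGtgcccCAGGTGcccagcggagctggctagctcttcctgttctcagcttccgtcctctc
Rab8b: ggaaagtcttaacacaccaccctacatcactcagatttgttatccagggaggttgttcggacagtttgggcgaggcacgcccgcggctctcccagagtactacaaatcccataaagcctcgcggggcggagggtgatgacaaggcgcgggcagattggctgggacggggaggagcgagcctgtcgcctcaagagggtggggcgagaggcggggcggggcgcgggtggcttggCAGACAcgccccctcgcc
Rab17 held 1 E-box and no Smad element, Rab11a held neither, Rab25 held 2 E-boxes and 2 Smad elements, and Rab8b held 1 Smad element. The E-box was in 17.2% of all 32851 promoter windows of this length and in 9 of the 48 Rab genes (18.8%), and the Smad element was in 17.1% of windows and in 10 Rab genes (20.8%). These shares have unlike units. A Rab gene counted where any of its windows held the motif, which can raise its share over one taken per window. Under TGF-β, 1 of 15 Rab genes that rose, 1 of 9 that fell and 7 of 24 that passed in neither direction held the E-box. A match is a run of letters and not a measured binding site, and no match says only that these letters are not in the window.

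Signal ranged widely over the family. Mean log2 values over the 6 arrays ran from 3.33 for Rab39 to 12.52 for Rab1a, with a median of 8.45, against a median of 6.86 over all genes. Of the 59 genes 26 lay above the upper quartile of all genes (8.88) and 8 below the lower quartile (5.07). The deposited table has no detection calls, so the dim values, which include Rab27a, Rab39, Rab9b, Rab42 and Rab3c, could not be separated from background. A fold change below is a ratio of measured values, and where a group reads in that dim range, as Rab17, Mlph and Exph5 did under TGF-β and Myrip and Rab30 in control cells, it may understate the change in transcript. Values of different probe sets do not rank genes by transcript number, so levels are compared below only within a gene.

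**Figure D1:**
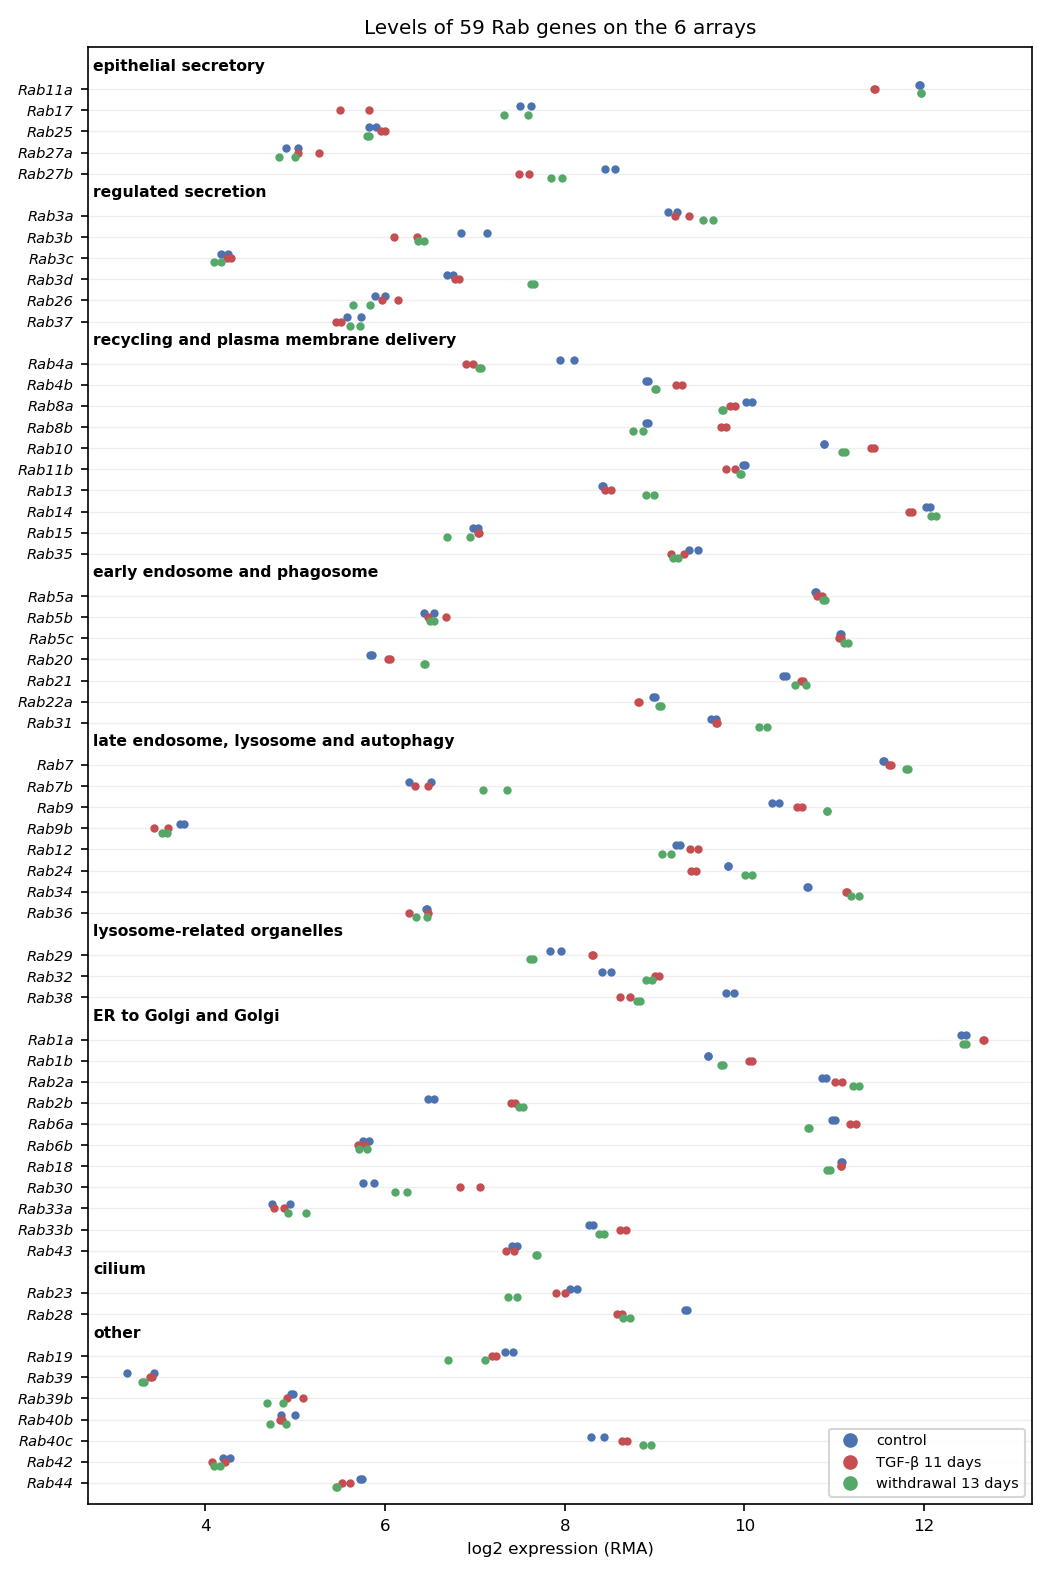
The log2 expression value of each of the 59 Rab genes is plotted along the horizontal axis for every array, with the genes sorted by role and the points coloured by group (2 control, 2 TGF-β, 2 withdrawal arrays). Replicate points of a gene mostly lie close together, and Rab17 and Rab30 are among the genes whose TGF-β points stand well away from the other groups.

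In the limma fit over all genes, 16 Rab genes rose and 12 fell under TGF-β at an adjusted p under 0.05, which is 47.5% of the family against 32.4% of all genes (15% rose and 17.5% fell). From TGF-β to withdrawal 17 rose and 13 fell, 50.8% against 43.9% of all genes (21.8% rose and 22.1% fell). Withdrawal cells still differed from control cells in 17 Rab genes that were higher and 12 that were lower, 49.2% against 45.3% of all genes (21.7% higher and 23.6% lower). Much of the family lies in the brighter range of the arrays, where calls are more common: among genes above the median level the shares called were 60.0%, 62.5% and 60.0% for Rab genes and 52.0%, 68.2% and 70.3% for all genes. Rises and falls were both present in every comparison, and the family's median difference was 0.04, 0.04 and 0.01 on the log2 scale, beside -0.01, -0.03 and -0.04 for all genes.

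These differences are relative to the common level to which the authors' normalization sets every array. With scaling on the poly-A control RNAs the median over all genes became -0.30, 0.12 and -0.18 in the 3 comparisons, and with scaling on the hybridization controls it became -0.17, -0.25 and -0.42. The Rab counts moved with it. With poly-A scaling 3 Rab genes rose and 18 fell under TGF-β, 12 rose and 3 fell from TGF-β to withdrawal, and 5 were higher and 8 lower in withdrawal than in control cells. With hybridization-control scaling the corresponding counts were 5 and 16, 5 and 23, and 3 and 38. Shares of all genes called were not taken with either scaling, so these counts cannot be read as particular to the Rab genes. Directions of small differences below hold relative to the other genes on the arrays.

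**Figure D2:**
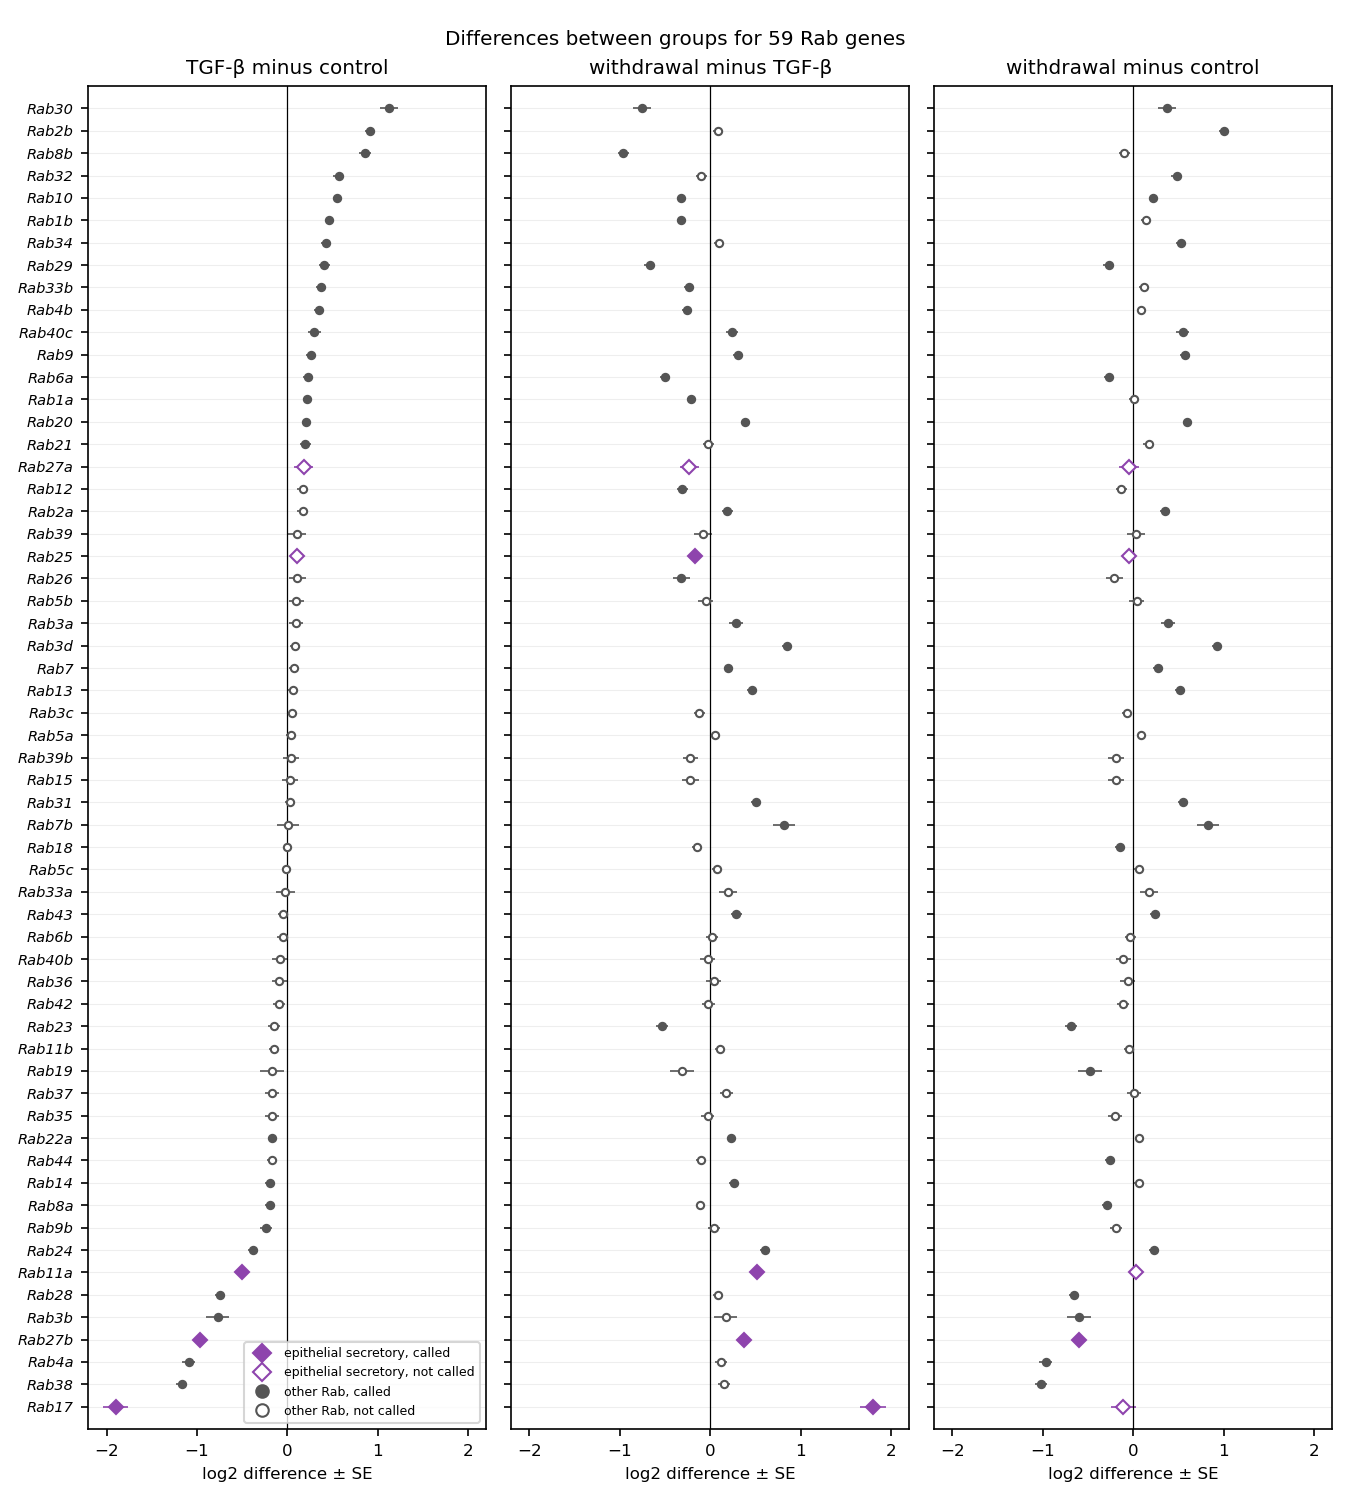
Each row is a Rab gene and each panel a comparison, with the log2 difference on the horizontal axis, its standard error as a bar, diamonds for the 5 epithelial secretory genes, circles for the 54 others, and filled symbols for an adjusted p under 0.05. Rab17 lies at -1.90 under TGF-β and at 1.80 on withdrawal, while Rab38 and Rab4a are low in the panels for TGF-β and for withdrawal against control.

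Of the 5 epithelial secretory Rab genes, 3 fell under TGF-β and none rose, and the same number, 3, rose from TGF-β to withdrawal while 1 fell. Of all genes 17.5% fell under TGF-β and 21.8% rose on withdrawal. Among genes above the median level 52.0% and 68.2% were called in these comparisons, in either direction. Rab17, an epithelial Rab of apical recycling and transcytosis, fell most of the whole family. It read 7.5 and 7.63 in the control arrays, 5.82 and 5.50 in the TGF-β arrays and 7.59 and 7.32 in the withdrawal arrays. Both TGF-β arrays lay well below the other 4, and the control and withdrawal arrays overlapped. The measured fall under TGF-β, into a range not separated from background, was 3.74-fold (log2 difference -1.90 ± 0.14 SE, adjusted p = 0.000182) and the rise on withdrawal 3.47-fold (1.80 ± 0.14, adjusted p = 0.00014), which left withdrawal at -0.11 ± 0.14 from control (adjusted p = 0.573, 95% interval -0.44 to 0.23). Its second probe set moved in the same directions by less, -0.72 under TGF-β and 0.66 on withdrawal.

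Rab11a, the general Rab of recycling endosomes, read 11.94 and 11.95 in control cells, 11.44 and 11.45 under TGF-β and 11.97 on both withdrawal arrays. The groups were tight, and the TGF-β arrays were the lowest. It fell 1.41-fold under TGF-β (-0.50 ± 0.048, adjusted p = 0.000583) and rose 1.43-fold afterwards (0.52 ± 0.048, adjusted p = 0.000297), to 0.03 ± 0.048 above control (adjusted p = 0.707). A second Rab11a probe set fell alike under TGF-β (-0.53) but stayed 0.32 below control after withdrawal in the fit over probe sets (adjusted p = 0.00651), so the 2 probe sets differ on whether withdrawal cells returned to the control level.

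Rab27b, which docks secretory granules and exosome-bearing organelles at the plasma membrane, read 8.56 and 8.45 in control cells, 7.60 and 7.49 under TGF-β and 7.85 and 7.97 after withdrawal. The withdrawal arrays lay between the other groups with no overlap on either side. Rab27b fell 1.95-fold under TGF-β (-0.97 ± 0.074, adjusted p = 0.000235), rose 1.29-fold on withdrawal (0.37 ± 0.074, adjusted p = 0.00839) and remained 1.51-fold below control (-0.60 ± 0.074, adjusted p = 0.00102). Of its 3 other probe sets, 2 fell under TGF-β, by 1.01 and 0.87 on the log2 scale, and the remaining set gave -0.27 (adjusted p = 0.0978). Between withdrawal and control, the set with the fall of 1.01 was lower (-0.46, adjusted p = 0.00682 in the fit over probe sets). The others gave -0.18 and -0.23 and did not pass (adjusted p = 0.104 and 0.116). Whether Rab27b remained below control therefore depends on the probe set.

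Rab25, a Rab11 relative restricted to epithelia, read 5.90 and 5.82 in control cells, 5.95 and 6.0 under TGF-β and 5.82 and 5.8 after withdrawal. All 6 values lay within a narrow band. Its difference under TGF-β was 0.11 ± 0.054 (adjusted p = 0.173), and the small fall from TGF-β to withdrawal, -0.17 ± 0.054, was just past the threshold (adjusted p = 0.0488) and was lost in 12 of the 14 alternative settings that kept the gene. Rab27a, the partner of Rab27b in granule docking, read 5.03 and 4.90 in control cells, 5.26 and 5.03 under TGF-β and 5.0 and 4.82 after withdrawal. Control and withdrawal arrays overlapped, the lower TGF-β array lay level with the higher control array, and no comparison passed (adjusted p = 0.264, 0.129 and 0.723). In the fit over probe sets a dimmer Rab27a set rose by 0.26 under TGF-β and fell by 0.21 on withdrawal (adjusted p = 0.0261 and 0.0355). The remaining Rab27a sets passed in no comparison. The mean of Rab25 lay at percentile 37.1 and that of Rab27a at percentile 23.9 of all genes, where values are not separated from background.

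Set against each other without a test, the 5 epithelial secretory genes had a median difference of -0.50 under TGF-β, 0.37 from TGF-β to withdrawal and -0.05 between withdrawal and control. The 54 other Rab genes had medians of 0.04, 0.03 and 0.04, with 16 that rose and 9 that fell under TGF-β. The secretory median is the value of Rab11a under TGF-β and that of Rab27b on withdrawal. Without x, s and a probe sets (types that may share probes with other transcripts), which removed Rab17 and replaced the brightest set of Rab11a, the medians of the remaining 4 genes were -0.21, 0.02 and -0.19.

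**Figure D3:**
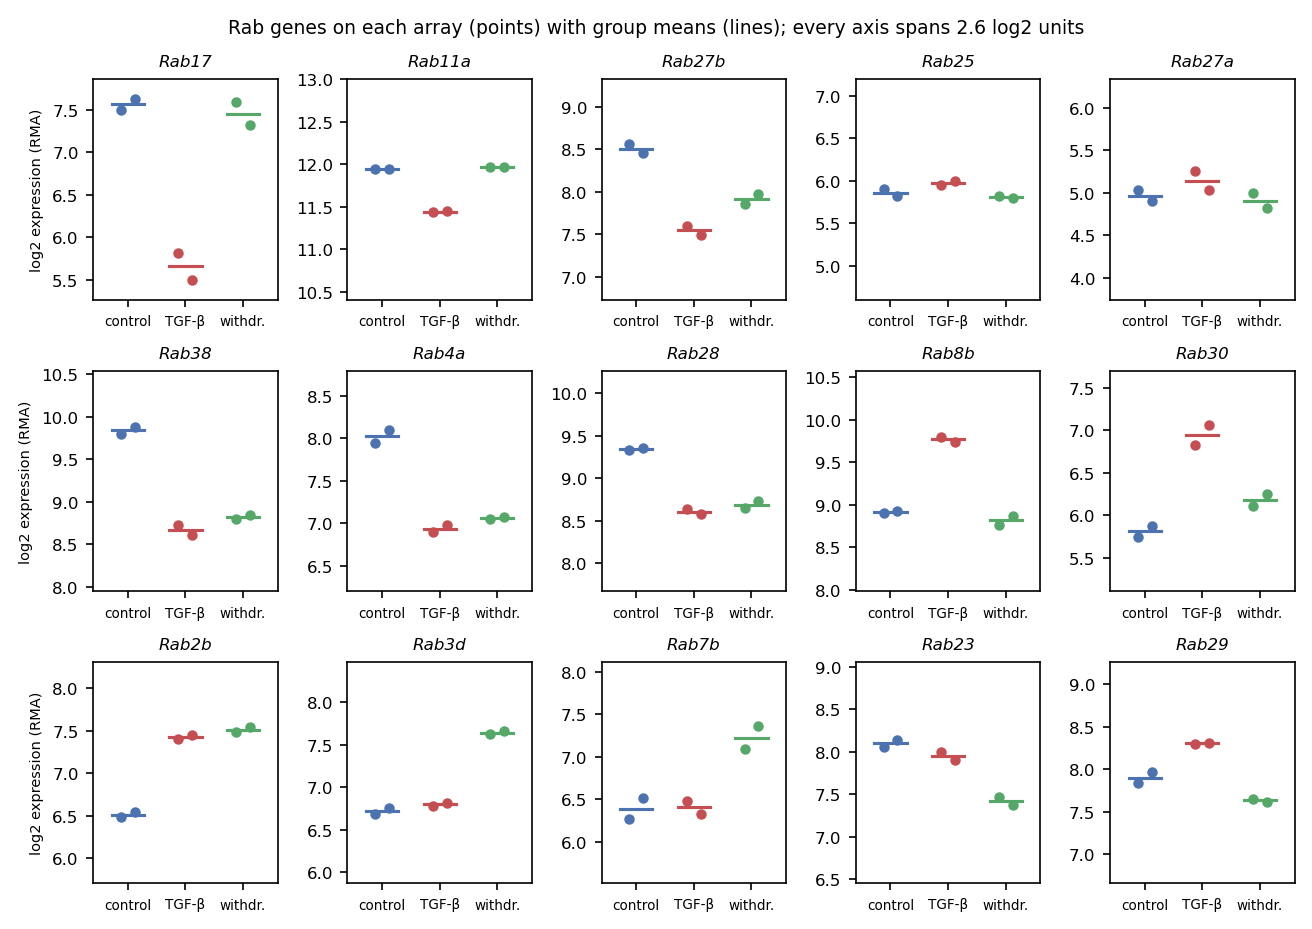
Points are the 6 arrays and lines the group means of the log2 expression value for the 5 epithelial secretory Rab genes (top row) and 10 other Rab genes, with every vertical axis spanning the same number of log2 units. Rab17, Rab11a and Rab27b dip under TGF-β and Rab8b and Rab30 peak there, while Rab38, Rab4a, Rab28 and Rab2b have withdrawal points beside the TGF-β points and Rab3d and Rab7b stand high only after withdrawal.

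The Rab genes of lysosome-related organelles, Rab38, Rab32 and Rab29, all changed under TGF-β, 2 up and 1 down, where 32.4% of all genes and 52.0% of those above the median level were called. Rab38, which with Rab32 brings cargo to melanosomes and lamellar bodies, read 9.80 and 9.88 in control cells, 8.73 and 8.61 under TGF-β and 8.80 and 8.84 after withdrawal. Control arrays stood above the other 4, with no overlap. Rab38 fell 2.25-fold under TGF-β (-1.17 ± 0.064, adjusted p = 6.26e-05), did not pass the test from TGF-β to withdrawal (0.15 ± 0.064, adjusted p = 0.11) and was 2.02-fold below control after 13 days without TGF-β (-1.02 ± 0.064, adjusted p = 6.04e-05). Rab32 went the other way, rising by 0.57 ± 0.061 under TGF-β and remaining 0.48 ± 0.061 above control after withdrawal. Rab29, a Rab of the Golgi and lysosome that recruits the kinase Lrrk2, read 7.84 and 7.96 in control cells, 8.30 and 8.31 under TGF-β and 7.65 and 7.61 after withdrawal. The TGF-β arrays were highest and the withdrawal arrays lowest, with a rise of 0.41 ± 0.059 and then a fall of 0.67 on the log2 scale (adjusted p = 0.00314 and 0.000249).

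The 2 Rab genes listed here under the cilium, Rab28 and Rab23, were lower in withdrawal than in control cells, by different routes. That comparison called 23.6% of all genes as lower, and 70.3% of those above the median level in either direction. Each Rab gene was put in only 1 role class, so a Rab with a part in the cilium can be listed elsewhere. Rab28 read 9.34 and 9.36 in control cells, 8.64 and 8.58 under TGF-β and 8.65 and 8.73 after withdrawal. It fell 1.67-fold under TGF-β (-0.74 ± 0.056, adjusted p = 0.000225), and the withdrawal and TGF-β arrays lay close together. Rab23, a brake on hedgehog signalling, read 8.06 and 8.14, then 8.0 and 7.90, then 7.47 and 7.37, and its withdrawal arrays were the lowest. It gave -0.15 ± 0.068 under TGF-β (adjusted p = 0.156) and fell 1.45-fold from TGF-β to withdrawal (-0.53 ± 0.068, adjusted p = 0.00123). In the fit over probe sets another Rab23 set rose by 0.34 under TGF-β (adjusted p = 0.0201), so the probe sets disagree there, while all 3 sets fell on withdrawal.

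Among 10 Rab genes of recycling and delivery to the plasma membrane, 3 rose and 3 fell under TGF-β. These are 60.0% of the class, beside 32.4% of all genes and 52.0% of those above the median level. Rab4a, which returns receptors quickly from early endosomes, read 7.95 and 8.10 in control cells, 6.90 and 6.98 under TGF-β and 7.05 and 7.07 after withdrawal. Only the control arrays were high. The fall under TGF-β was 2.12-fold (-1.09 ± 0.071, adjusted p = 0.000122), and withdrawal cells were still 1.95-fold below control (-0.97 ± 0.071, adjusted p = 0.000108), with 0.12 ± 0.071 between TGF-β and withdrawal (adjusted p = 0.231). Rab4b, its close relative, rose under TGF-β by 0.35 ± 0.051 and fell by 0.26 on the log2 scale after it was withdrawn.

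Rab8b, which carries cargo to the plasma membrane, read 8.90 and 8.93 in control cells, 9.80 and 9.74 under TGF-β and 8.76 and 8.87 after withdrawal. The TGF-β arrays stood clear above the rest. Rab8b rose 1.81-fold (0.86 ± 0.061, adjusted p = 0.000172), fell 1.94-fold on withdrawal (-0.96 ± 0.061, adjusted p = 6.91e-05) and ended at -0.10 ± 0.061 from control (adjusted p = 0.251), although a second, dim Rab8b probe set passed in no comparison. Rab10, which acts in basolateral and glucose transporter delivery, also rose under TGF-β (0.55 ± 0.049) and then fell (-0.32 ± 0.049). Unlike Rab8b, it stayed above control after withdrawal (0.22 ± 0.049, adjusted p = 0.011), a call that was lost in 4 of the 15 alternative settings. In the fit over probe sets another Rab10 set was also above control (0.33, adjusted p = 0.00492). The remaining Rab10 set gave -0.11 (adjusted p = 0.164), so this difference from Rab8b depends on the probe set. Rab8a fell a little under TGF-β (-0.19 ± 0.052, adjusted p = 0.0391), a call that was lost in 10 of the 15 alternative settings. Rab13, which serves tight junctions, gave 0.06 ± 0.057 there (adjusted p = 0.482) and rose from TGF-β to withdrawal (0.46 ± 0.057, adjusted p = 0.00102). Rab14 and Rab11b gave -0.19 ± 0.052 and -0.15 ± 0.055 under TGF-β. Only that of Rab14 passed (adjusted p = 0.0351), and it was lost in 5 of the 15 alternative settings.

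Among the 6 Rab genes of regulated secretion, 1 fell and 5 did not pass under TGF-β, and 2 rose and 1 fell on withdrawal. Of all genes 32.4% and 43.9% were called in these comparisons, and of those above the median level 52.0% and 68.2%. The gene that fell under TGF-β was Rab3b. It read 6.85 and 7.14 in control cells, 6.10 and 6.36 under TGF-β and 6.37 and 6.43 after withdrawal. Its control arrays were highest, and the spread between replicates was wide. It fell 1.7-fold (-0.77 ± 0.13, adjusted p = 0.00544) and was 1.51-fold below control after withdrawal (-0.60 ± 0.13, adjusted p = 0.0102), a call that was lost without the first withdrawal array (-0.57, adjusted p = 0.0558). Rab3d, the Rab of exocrine secretory granules, read 6.69 and 6.76, then 6.78 and 6.82, then 7.63 and 7.66 in withdrawal cells. Control and TGF-β arrays lay together, and only the withdrawal arrays were high. Rab3d gave 0.08 ± 0.053 under TGF-β (adjusted p = 0.34) and rose 1.8-fold afterwards (0.85 ± 0.053, adjusted p = 6.61e-05), to 1.9-fold above control. Rab3a, a synaptic and granule Rab, also rose on withdrawal, by 0.29 ± 0.077, and Rab26 fell by 0.32 on the log2 scale. The call of Rab3a was lost in 5 of 15 and that of Rab26 in 8 of 14 alternative settings.

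Among 7 Rab genes of early endosomes and phagosomes, 2 rose and 1 fell under TGF-β, and 3 rose on withdrawal. Each count is 42.9% of the class, beside 32.4% and 43.9% of all genes and 52.0% and 68.2% of those above the median level. The 3 Rab5 genes, which govern homotypic fusion of early endosomes, did not pass in any comparison, and their differences lay between -0.05 and 0.10. In the fit over probe sets a second, dimmer Rab5b set was lower in withdrawal than in control cells (-0.32 ± 0.08, adjusted p = 0.0215). Rab20, a Rab of phagosome maturation, rose in each step, by 0.21 ± 0.048 under TGF-β and by 0.39 ± 0.048 on withdrawal. Its call under TGF-β was lost in 7 of the 15 alternative settings, and its mean lay at percentile 40.3 of all genes. Rab31, which links the trans-Golgi network and endosomes, gave 0.03 ± 0.056 under TGF-β and rose by 0.51 ± 0.056 on withdrawal (adjusted p = 0.000614).

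Among 8 Rab genes of late endosomes, lysosomes and autophagy, 5 were higher in withdrawal than in control cells and none lower, in a comparison that called 45.3% of all genes and 70.3% of those above the median level (21.7% of all genes as higher). Rab7b, which acts between late endosomes and the trans-Golgi network, read 6.27 and 6.51 in control cells, 6.48 and 6.33 under TGF-β and 7.09 and 7.36 after withdrawal. Control and TGF-β arrays overlapped below the withdrawal arrays. It rose 1.77-fold from TGF-β to withdrawal (0.82 ± 0.12, adjusted p = 0.00245), after 0.01 ± 0.12 under TGF-β (adjusted p = 0.955). Rab24, linked to autophagy, read 9.82 on both control arrays, 9.46 and 9.41 under TGF-β and 10.01 and 10.08 after withdrawal. It was lowest under TGF-β and highest after withdrawal, with a fall of 0.38 on the log2 scale (adjusted p = 0.00297) followed by a 1.52-fold rise (0.61 ± 0.054, adjusted p = 0.000272).

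Rab7, the main Rab of late endosomes and lysosomes, rose by 0.20 ± 0.048 on withdrawal to 0.27 ± 0.048 above control. These calls were lost in 6 and 3 of the 15 alternative settings, and both were lost with the mean of probe sets. In the fit over probe sets the second Rab7 set gave -0.06 on withdrawal and -0.16 against control, and neither passed (adjusted p = 0.419 and 0.0646). Rab9, which returns mannose 6-phosphate receptors to the Golgi, rose in each step, by 0.26 ± 0.054 and 0.31 ± 0.054, and Rab34, which positions lysosomes, rose by 0.43 ± 0.055 under TGF-β and remained at 0.53 ± 0.055 above control. Cd68, listed above as a leukocyte marker and also a lysosomal membrane protein, rose in the same withdrawal arrays as Rab7b, Rab9 and Rab31.

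Rab genes of the endoplasmic reticulum and Golgi had 6 rises, no falls and a median difference of 0.22 under TGF-β among 11 members. These are 54.5% of the class, beside 32.4% of all genes called there (15% as higher) and 52.0% of those above the median level. From TGF-β to withdrawal 2 rose and 5 fell (63.6%), beside 43.9% of all genes and 68.2% of those above the median level. Rab30, a Golgi Rab, read 5.75 and 5.88 in control cells, 6.83 and 7.06 under TGF-β and 6.11 and 6.25 after withdrawal. The TGF-β arrays were highest and no groups overlapped. It rose 2.19-fold (1.13 ± 0.1, adjusted p = 0.000415), fell 1.7-fold on withdrawal (-0.76 ± 0.1, adjusted p = 0.00136) and was 1.29-fold above control at the end (adjusted p = 0.0266). A second Rab30 probe set rose under TGF-β (0.68) but gave -0.05 from TGF-β to withdrawal (adjusted p = 0.6).

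Rab2b, which like Rab2a acts at the Golgi and in autophagy, read 6.48 and 6.54 in control cells, 7.40 and 7.45 under TGF-β and 7.49 and 7.54 after withdrawal. Only the control arrays were low. The rise was 1.88-fold (0.91 ± 0.055, adjusted p = 9.17e-05), and withdrawal cells were 2.01-fold above control (1.00 ± 0.055, adjusted p = 3.69e-05), with all 5 Rab2b probe sets higher in both comparisons. Rab1a and Rab1b, which drive transport from the endoplasmic reticulum to the Golgi, rose under TGF-β by 0.22 ± 0.051 and 0.46 ± 0.048 and fell on withdrawal by 0.21 and 0.32 on the log2 scale. Rab6a, which acts in retrograde Golgi transport, rose by 0.23 ± 0.051 and then fell by 0.50, to 0.27 below control on the log2 scale. Rab33b, a Golgi Rab with a role in autophagy, also rose and then fell, at 0.37 ± 0.055 and -0.24 ± 0.055. It ended at 0.12 ± 0.055 from control (adjusted p = 0.13). Of the 6 rises in this class under TGF-β, those of Rab1a, Rab1b, Rab6a and Rab33b were lost with either spike-in scaling, and those of Rab2b and Rab30 were kept.

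Of the 7 remaining Rab genes 14.3% were called under TGF-β, beside 32.4% of all genes. The 1 rise was that of Rab40c (0.30 ± 0.071), whose protein carries a SOCS box for ubiquitin ligase assembly, and this call was lost in 5 of the 15 alternative settings. Its relative Rab40b depended on the probe set. The brightest Rab40b set gave -0.08, -0.03 and -0.11 in the 3 comparisons and passed in none. The other set read 3.45 and 3.47 in control cells, 3.85 and 3.99 under TGF-β and 5.25 and 5.52 after withdrawal, and rose by 1.47 ± 0.1 from TGF-β to withdrawal in the fit over probe sets (adjusted p = 0.000108). It started among the dimmest values of the table and was high only after withdrawal. The rule for members, which takes the brighter set, leaves this change out of the counts above.

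Over the 38 Rab genes with several probe sets, the fit over probe sets called no representative and another set of the same gene in opposite directions. That check sets only the representative against the others, and in it Rab2a came closest on withdrawal. Its representative rose by 0.19 ± 0.057 in the fit over genes (adjusted p = 0.0412) but did not pass in the fit over probe sets (adjusted p = 0.0573). There another Rab2a set fell by 0.22 on the log2 scale (adjusted p = 0.0195). Sets other than the representative did conflict for Rab22a between withdrawal and control. Sets at 0.47 and 0.25 were higher (adjusted p = 0.000773 and 0.0137), and a set at -0.30 was lower (adjusted p = 0.0351). In 14, 13 and 15 genes another set was called in the same direction as the representative. Another set alone was called in 7 genes under TGF-β, in 5 from TGF-β to withdrawal and in 8 for withdrawal against control. Rab18, which acts on lipid droplets and the endoplasmic reticulum, was in the last group, since its dimmer set was 0.68 below control after withdrawal on the log2 scale (9.50 and 9.34 in control against 8.73 and 8.74), while its brighter set gave -0.15 in both fits (adjusted p = 0.0469 over genes and 0.0738 over probe sets).

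**Figure D4:**
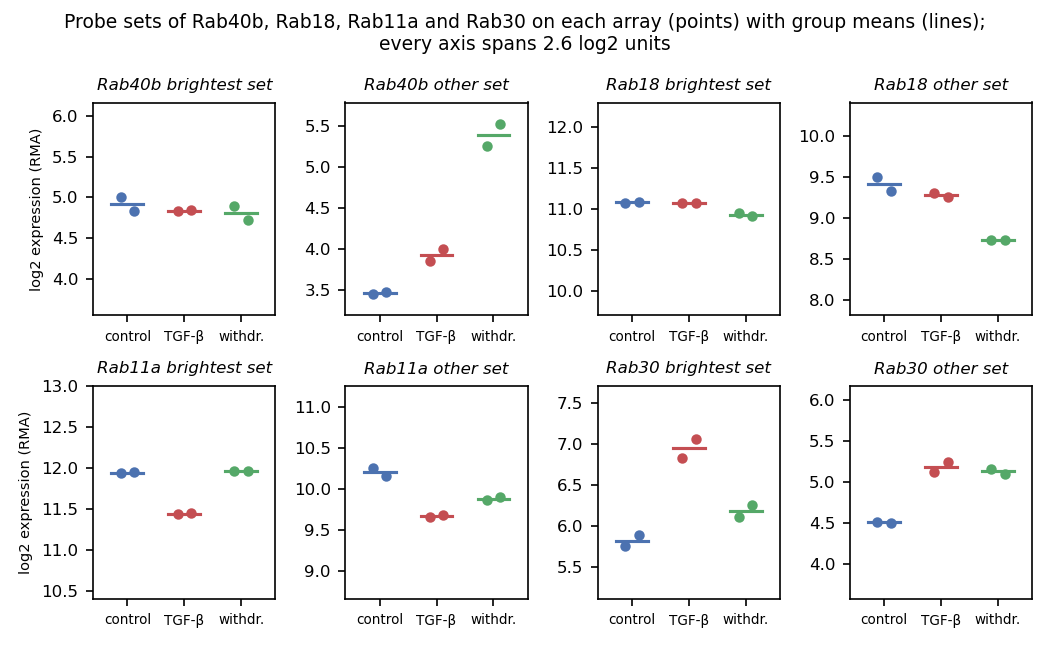
Points are the 6 arrays and lines the group means of the log2 value for the brightest probe set and another probe set of Rab40b, Rab18, Rab11a and Rab30, with every vertical axis spanning the same number of log2 units. The other Rab40b set climbs to 5.25 and 5.52 after withdrawal while the brightest set stays level, and the other Rab11a set stays below its control points after withdrawal.

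The proteins that load, read and switch off Rab proteins were followed through 9 lists with 133 genes measured. Of these, 33 rose and 24 fell under TGF-β (42.9% called), 57 rose and 20 fell from TGF-β to withdrawal (57.9%), and 56 were higher and 16 lower in withdrawal than in control cells (54.1%). Of all genes 32.4%, 43.9% and 45.3% were called in these comparisons, and of genes above the median level 52.0%, 68.2% and 70.3%. The median difference over the partner genes was 0.01, 0.18 and 0.15.

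Among 12 measured effectors of Rab27 and Rab3, 2 rose and 4 fell under TGF-β. In that comparison 32.4% of all genes and 52.0% of those above the median level were called. Mlph, melanophilin, which ties Rab27a to a myosin V motor, read 7.46 and 7.69 in control cells, 4.65 and 5.20 under TGF-β and 7.23 and 7.26 after withdrawal. The measured values fell 6.27-fold to near the lower quartile of all genes (-2.65 ± 0.18, adjusted p = 0.000153) and rose 4.99-fold (2.32 ± 0.18, adjusted p = 0.000156), and withdrawal cells did not differ from control past the threshold (adjusted p = 0.202). Sytl2 and Exph5, which also bind Rab27, fell 2.08-fold and 2.01-fold and rose 2.33-fold and 1.76-fold. Myrip, which joins Rab27a to other myosins, went the opposite way. It read 4.59 and 4.15 in control cells, 6.92 and 7.19 under TGF-β and 4.77 and 4.39 after withdrawal, a measured 6.43-fold rise and 5.55-fold fall (adjusted p = 0.000186 and 0.000156), with the control and withdrawal values below the lower quartile of all genes. Mlph and Myrip therefore had larger differences than Rab27a and Rab27b themselves, in opposite directions.

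Of 9 Rab11 family effectors 4 rose and 2 fell under TGF-β (66.7%, beside 32.4% of all genes and 52.0% of those above the median level). The 2 that fell were motors of apical recycling and secretion. Myo5c read 9.22 and 9.08, then 7.19 and 7.29, then 8.46 and 8.52, a 3.76-fold fall and a 2.38-fold rise that left it 0.66 below control on the log2 scale (adjusted p = 0.000575). Myo5b fell 2.31-fold and rose 1.61-fold, and it too remained lower than in control cells (-0.53 ± 0.088, adjusted p = 0.00383). The adaptor Rab11fip5 rose in each step, by 0.78 ± 0.087 and 0.53 ± 0.087, to 1.31 above control, whereas Rab11fip2 rose by 0.38 ± 0.098 and then fell by 0.59 on the log2 scale.

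**Figure D5:**
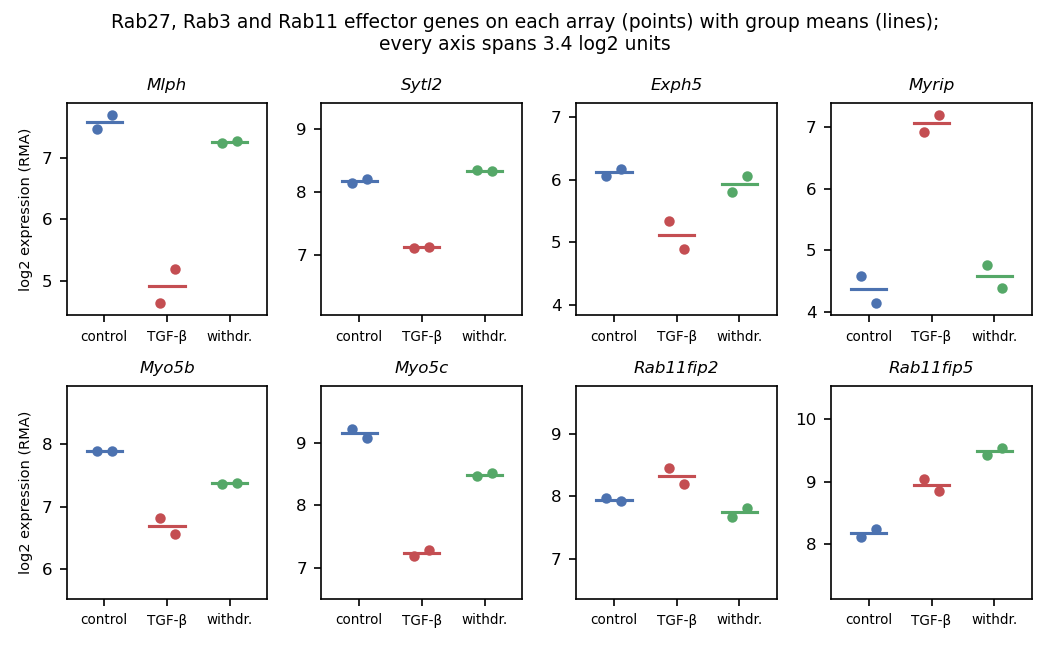
Points are the 6 arrays and lines the group means of the log2 expression value for 4 effectors of Rab27 and Rab3 (top row) and 4 of Rab11 (bottom row), with every vertical axis spanning the same number of log2 units. Mlph, Sytl2, Exph5, Myo5b and Myo5c are lowest under TGF-β, Myrip is high only there, and Rab11fip5 is highest after withdrawal.

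Effectors of Rab7 include the HOPS complex that tethers late endosomes to lysosomes. They were higher in withdrawal than in control cells in 9 of 10 genes, with none lower and a median difference of 0.76. That comparison called 45.3% of all genes (21.7% as higher) and 70.3% of those above the median level. From TGF-β to withdrawal 7 rose and none fell, beside 43.9% of all genes and 68.2% of those above the median level called. Under TGF-β 3 rose (30.0% of the list, beside 32.4% of all genes). The HOPS genes Vps11, Vps18, Vps41 and Vps33a were 1.10, 1.07, 0.98 and 0.92 above control after withdrawal on the log2 scale (adjusted p from 2.49e-05 to 0.000458). Vps11 read 7.44 and 7.38 in control cells, 7.54 and 7.49 under TGF-β and 8.46 and 8.55 after withdrawal, so that only the withdrawal arrays were high. Plekhm1, Osbpl1a and Fyco1, which connect Rab7 to lysosome fusion and to motors, were 0.68, 0.57 and 0.83 above control.

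Of 9 Rab5 effectors 6 were higher and 1 lower in withdrawal than in control cells, beside 45.3% of all genes and 70.3% of those above the median level called there. Eea1, the tether of early endosomes, fell by 0.80 under TGF-β and rose by 1.14 ± 0.051 on withdrawal (adjusted p = 0.000118 and 2.12e-05). Pik3c3 and Pik3r4, subunits of the lipid kinase that Rab5 and Rab7 recruit, rose on withdrawal by 0.78 ± 0.064 and 0.57 ± 0.085, and Rabep1 and Rabep2, which bridge Rab5 and Rab4, by 0.34 ± 0.077 and 0.24 ± 0.052. The brightest sets of the Rab5 genes themselves did not pass in these comparisons, while the second Rab5b set was lower in withdrawal than in control cells.

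All 9 measured Golgi tethers changed from TGF-β to withdrawal, 7 up and 2 down, where 43.9% of all genes and 68.2% of those above the median level were called. Bicd2, a Rab6 adaptor for dynein, rose by 0.98 ± 0.05 under TGF-β and fell by 0.75 on withdrawal, and Uso1, a Rab1 effector, rose by 0.43 ± 0.064 and fell by 0.58. Golga2 rose by 0.57 ± 0.049 under TGF-β, and Golga4 and Golgb1 rose by 0.74 ± 0.048 and 0.50 ± 0.075 on withdrawal. Gcc2 fell by 0.35 under TGF-β and rose by 0.26 ± 0.061. In the exocyst, the tether of vesicles at the plasma membrane, Exoc5 rose (0.67 ± 0.059) and Exoc6 fell (-0.59 ± 0.082) under TGF-β among 9 subunits. On withdrawal Exoc5 fell by 0.32 on the log2 scale while 4 subunits rose, led by Exoc4 (0.67 ± 0.062) and Exoc2 (0.47 ± 0.055). Exoc7 and Exoc6 rose by 0.35 ± 0.054 and 0.35 ± 0.082. The exocyst calls were 22.2% under TGF-β and 55.6% on withdrawal, beside 32.4% and 43.9% of all genes.

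Among 32 GEFs 5 rose and 9 fell under TGF-β, and 10 rose and 7 fell on withdrawal. The shares called were 43.8% and 53.1%, beside 32.4% and 43.9% of all genes and 52.0% and 68.2% of those above the median level. Dennd1b, an exchange factor for Rab35, fell by 0.99 and rose by 1.28 ± 0.051, and Dennd4c, which activates Rab10, fell by 0.63 and rose by 1.51 ± 0.065. Dennd2a, which acts on Rab9, rose by 0.99 ± 0.15 under TGF-β, and Rin1, which acts on Rab5, rose by 0.60 ± 0.052 and then fell by 0.55. Hps1 and Hps4, which together activate Rab32 and Rab38, rose on withdrawal by 0.97 ± 0.071 and 0.75 ± 0.058, while Rab38 remained 1.02 below control on the log2 scale.

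Among 36 GAPs 10 rose and 5 fell under TGF-β, and 14 rose and 3 fell on withdrawal. These are 41.7% and 47.2% of the list, beside 32.4% and 43.9% of all genes and 52.0% and 68.2% of those above the median level. Evi5, a GAP for Rab11, fell by 1.00 and rose by 0.57 ± 0.058. Tbc1d1, which acts on Rab8 and Rab10 proteins, rose by 0.86 ± 0.08 and fell by 1.01. Tbc1d8b and Tbc1d23 rose under TGF-β by 0.63 ± 0.071 and 0.46 ± 0.06, and Rabgap1l, Tbc1d17 and Tbc1d22a rose on withdrawal by 1.09 ± 0.064, 0.82 ± 0.073 and 0.75 ± 0.099. Of 7 genes for Rab prenylation and membrane cycling, the escort protein gene Chml fell in each step, by 0.32 and 0.38, while its relative Chm rose under TGF-β by 0.29 ± 0.072. On withdrawal Rabggtb, a subunit of the transferase that attaches the lipid to Rab proteins, fell by 0.37 and the Rab chaperone Rabif by 0.52, and Rabac1 rose by 0.42 ± 0.058.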

How the data were processed

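Total RNA with added poly-A control RNAs was made into biotin-labelled antisense RNA with a kit primed at the 3′ end, per the labels' protocols, so probe sets far from that end read less. The authors deposited log2 values per probe set and named RMA in their processing notes, without a version; this method subtracts background and brings all arrays to the same distribution, so a change common to all genes cannot be seen. The table had 45101 probe sets, of which 34945 had 1 gene symbol in the platform annotation, which can be old. Arrays correlated at 0.998 within groups and at 0.974 to 0.981 between them. The number of arrays limits the precision.

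Values of 18193 genes were fitted with limma 3.58.1 (R 4.3.3; 3 residual and 2.857 prior degrees of freedom). P-values were 2-sided and adjusted by Benjamini-Hochberg over all genes, and a gene with an adjusted p under 0.05 was said to rise, fall or be called. Errors are standard errors of the difference. A second fit used all probe sets with 1 symbol. The script was tested on simulated data. The Rab genes, their role classes and the partner lists were chosen with earlier results of these data known, so lists are described by counts and medians. Values per array were given for the 5 epithelial secretory genes and the 8 called Rab genes with the largest difference in each comparison, and up to 4 called genes with the largest difference were named per partner list under TGF-β and on withdrawal; other names are examples chosen after their values were seen. Alternatives were a mean of probe sets, a filter on the dimmest 40% of genes, removal of x, s and a probe sets, scaling on 24 poly-A or 18 hybridization control probe sets, cyclic loess, an intensity trend, fits of only the groups compared, a replicate block, and leaving out each array. The windows of Rab2b, Rab3d and Rab27a, also due by the rule for sequences, are not printed; Rab2b and Rab3d held neither motif.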

Additional observations from a re-analysis of the deposited data

How the results depend on the processing

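Of 531 alternative values for the differences of the named Rab genes, 499 kept their direction and their side of the threshold, 16 lost and 5 gained a call, and 11 changed sign. Of the calls over all Rab genes, 11 of 28 under TGF-β, 7 of 30 on withdrawal and 8 of 29 between withdrawal and control were kept in every alternative. The spike-in scalings moved the counts most, and the shift of all genes that they bring is given with the counts above. With poly-A scaling 3 Rab genes rose under TGF-β, 3 fell on withdrawal and 5 were higher in withdrawal than in control cells; with hybridization-control scaling 5 rose under TGF-β, 5 rose and 23 fell on withdrawal, and 3 were higher and 38 lower in withdrawal than in control cells. Leaving out 1 array at a time gave 10 to 16 Rab genes that rose under TGF-β; the count was 10 without control array 1 and without TGF-β array 1. Medians of the epithelial secretory genes were -0.78, 0.52 and -0.19 with poly-A scaling, -0.65, 0.15 and -0.43 with hybridization-control scaling, -0.21, 0.02 and -0.19 without x, s and a probe sets, and -0.97 under TGF-β and 0.52 on withdrawal without the dimmest 40% of genes, which left 3 of the 5. Medians of the other Rab genes were -0.25, 0.17 and -0.10 with poly-A scaling and -0.12, -0.19 and -0.34 with hybridization-control scaling, and for withdrawal against control 0.09 without the dim genes and 0.08 with cyclic loess. Signs turned for differences that had not passed: Rab25 under TGF-β (-0.18 and -0.04 with poly-A and hybridization-control scaling), Rab27a under TGF-β (-0.11 with poly-A scaling), and, between withdrawal and control, Rab11a (-0.15 with the mean of probe sets, -0.32 without x, s and a probe sets, -0.11 and -0.35 with the 2 scalings), Rab27a (0.01 with the mean of probe sets, and from -0.14 to 0.04 leaving out arrays) and Rab17 (from -0.24 to 0.03 leaving out arrays). Calls on withdrawal were lost for Rab30 without x, s and a probe sets (-0.05, adjusted p = 0.59), for Rab27b with hybridization-control scaling (0.15, adjusted p = 0.321) and for Rab23 with poly-A scaling (-0.38, adjusted p = 0.0873). The cause of these changes was not tested, apart from the shift of all genes and the members removed.

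With the replicate number as a replicate block, 15 Rab genes rose and 9 fell under TGF-β, 17 rose and 12 fell on withdrawal, and 17 were higher and 11 lower in withdrawal than in control cells. The replicate differences of the groups correlated at 0.00674, -0.00376 and -0.0162 across 18193 genes, so no shared replicate shift was seen. The labels give only a replicate number, and this check cannot tell whether arrays with the same number were handled together.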
